A study of Homo sapiens with 6 samples.

Results

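The aminoacyl-tRNA synthetases described here are 38 protein-coding genes of the 30230 genes in the count table, chosen by a rule on their symbols that uses no measured value. They comprise 21 genes of cytosolic enzymes, whose symbols end in 1, in 3 (TARS3) or in the subunit letters of phenylalanyl-tRNA synthetase (FARSA and FARSB), and 17 genes of mitochondrial enzymes, whose symbols end in 2. After silencing of FSCN1 the mRNA of 14 cytosolic and 13 mitochondrial enzymes fell, and that of 3 cytosolic and 2 mitochondrial enzymes rose. By the same test 33.2% of all tested genes were lower and 35.1% higher. The counts of both compartments depended on the processing. With libraries scaled by their totals alone, 9 cytosolic enzymes were lower and 7 higher, and 8 mitochondrial enzymes were lower and 2 higher. Once the trend of change with mean level was removed, 9 cytosolic enzymes were lower and 6 higher, and 13 mitochondrial enzymes were lower and 1 higher. The shares of all tested genes under these settings are not given here. TARS1, which joins threonine to its tRNA in the cytosol, fell to 35.5% of the control level, and YARS2, the mitochondrial tyrosine enzyme, to 53.4%. AARS1, the cytosolic alanine enzyme, rose most, to 132% of the control level.

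Aminoacyl-tRNA synthetases attach each amino acid to its own tRNA and thereby set the reading of the genetic code. Most amino acids have a cytosolic enzyme and a separate mitochondrial enzyme, both encoded in the nucleus, while KARS1 and GARS1 each supply both compartments and EPRS1 joins the glutamate and proline enzymes in a single chain. In mitochondria, glutamine tRNA is first charged with glutamate by EARS2 and then amidated by the GatCAB complex. Several cytosolic enzymes are held together in the multisynthetase complex, and many genes of cytosolic synthetases are known targets of ATF4, the transcription factor of the amino acid response.

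RNA-seq was performed on polyadenylated RNA of the A549 line, which derives from a human lung adenocarcinoma. There were 3 NC libraries and 3 siFSCN1 libraries. The NC cells received a scrambled siRNA by the description in the methods, although their treatment label names a control plasmid. The siFSCN1 cells received an siRNA against FSCN1, which encodes fascin, a protein that bundles actin filaments. The study's text names a single such siRNA for these libraries, so an effect of FSCN1 and an effect of that siRNA on other transcripts cannot be told apart.

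The libraries held between 27967301 and 36560919 counts. FSCN1 stood at 44.98, 47.24 and 45.99 FPKM in NC replicates 1 to 3 and at 4.46, 2.82 and 3.19 in siFSCN1 replicates 1 to 3, so that the silenced gene was low in every library labelled as silenced and in none of the others. All 9 epithelial and A549 markers were at 1 FPKM or more in every library, with sums of 7773 to 8500 FPKM in NC and 7475 to 7959 in siFSCN1. Single markers moved within that sum. KRT18 lay between 1675 and 1947 FPKM in NC and between 939.2 and 1157 in siFSCN1, and AKR1C2 between 749.6 and 823.0 in NC and between 408.6 and 461.5 in siFSCN1. CDH1 was higher in siFSCN1, at 25.94 to 26.65 FPKM against 9.02 to 9.41. The endothelial and fibroblast markers did not exceed 0.39 FPKM. Of the leukocyte markers, PTPRC and CD3E were at or near 0, and the summed level of the list was 2.79 to 2.99 FPKM in NC and 3.86 to 4.83 in siFSCN1, nearly all of it CD14. The part of these markers in the changes below was not tested. The study's text calls the libraries of a group biological replicates. No label names separate cultures, so the p-values measure only the spread between these libraries, which may be technical.

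Levels below are given as CPM, counts scaled to library size after TMM, the scale on which edgeR's quasi-likelihood test compared the groups. In total 37 of the 38 genes passed the filter on low counts. VARS2, the mitochondrial valine enzyme, did not: it had 0, 0 and 3 counts in NC and 11, 1 and 2 in siFSCN1. A gene was called at an adjusted p under 0.05 over all 17076 tested genes. The mRNA of 27 of the 37 tested enzymes (73.0%) was lower in siFSCN1, against 33.2% of all tested genes, and that of 5 (13.5%) was higher, against 35.1%. In 34 (91.9%) the CPM of the groups did not overlap, against 71.3% of all tested genes. The fall was at least 2-fold in 2 of the 37, TARS1 among them, which is near the 4.85% of all tested genes. No enzyme rose 2-fold, against 11.7% of all tested genes. In these bulk samples a fall can come from fewer cells with the transcript or from less of it in each cell, and these cannot be told apart.

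**Figure D1:**
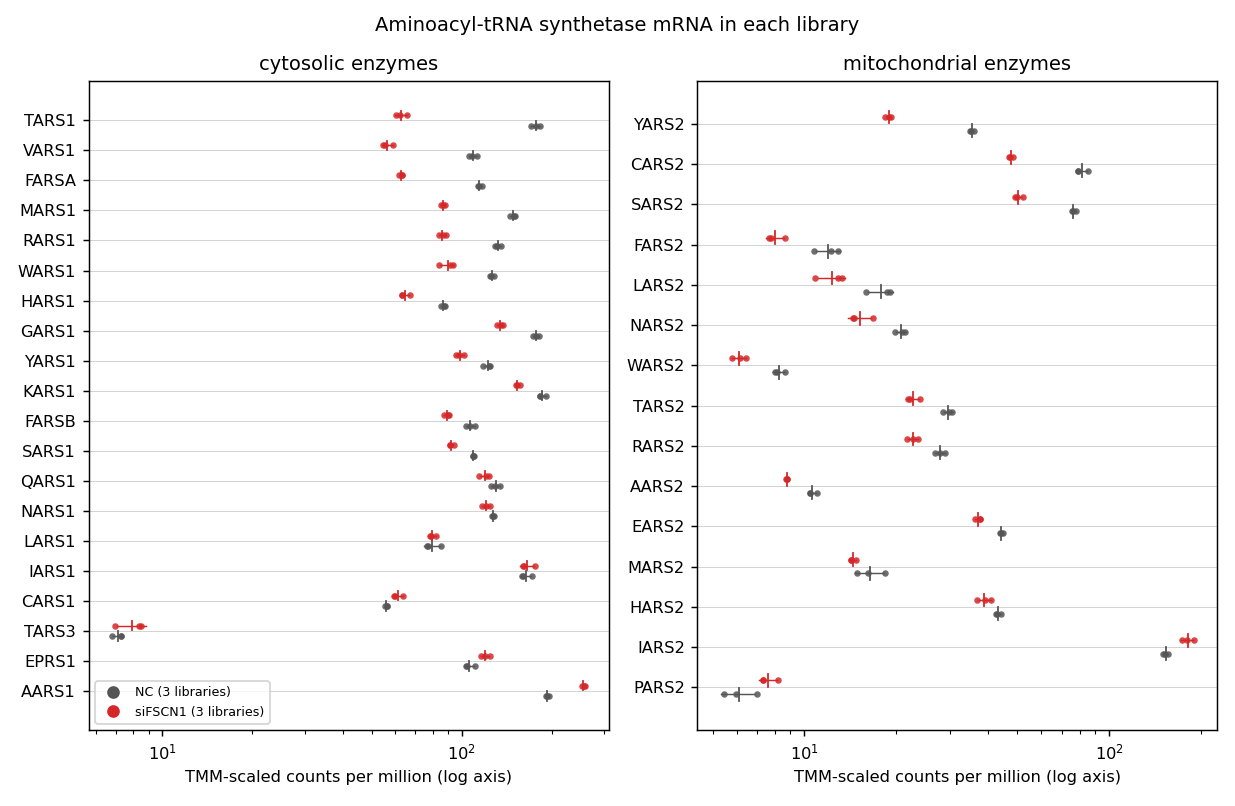
TMM-scaled CPM (log axis) of 20 cytosolic and 15 mitochondrial enzymes, with 3 NC (grey) and 3 siFSCN1 (red) libraries as points, group means as vertical ticks and SD as horizontal bars, ordered by log2 fold change. TARS1 fell from a mean of 177 to 62.8 CPM and YARS2 from 35.4 to 18.9, with wide gaps between groups, while the groups of LARS1, IARS1 and TARS3 overlap.

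Among the cytosolic enzymes, TARS1 (ENSG00000113407.14, GRCh38 chr5:33440696-33468091, plus strand) had 170.7, 182.2 and 177.5 CPM in NC and 65.6, 60.3 and 62.3 in siFSCN1. Every siFSCN1 library lay far below every NC library, a log2 fold change of -1.49 (standard error 0.045, adjusted p 8.0e-15). VARS1, which charges valine tRNA (ENSG00000204394.13, chr6:31777518-31795752, minus strand), went from 112.7, 108.6 and 105.8 to 59.1, 55.6 and 54.6 CPM. Its log2 fold change of -0.95 (standard error 0.047, adjusted p 4.7e-12) stood just short of 2-fold and reached 2-fold without siFSCN1 replicate 1 (-1.0). FARSA, the catalytic subunit of the phenylalanine enzyme (ENSG00000179115.11, chr19:12922479-12934037, minus strand), went from 113.3, 113.9 and 117.0 to 62.0, 63.4 and 63.5 CPM. This was a log2 fold change of -0.87 (standard error 0.043, adjusted p 3.8e-12). FARSB, the partner subunit of the same enzyme, had a log2 fold change of -0.26 (standard error 0.043, adjusted p 3.4e-05), and the 95% intervals of the subunits, -0.95 to -0.78 and -0.34 to -0.18, did not overlap.

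MARS1, the methionine enzyme (ENSG00000166986.15, chr12:57475445-57517569, plus strand), fell from 151.3, 149.1 and 144.7 to 88.2, 86.5 and 85.4 CPM, with a log2 fold change of -0.77 (standard error 0.041, adjusted p 9.3e-12). RARS1, the arginine enzyme (ENSG00000113643.9, chr5:168486451-168519301, plus strand), fell from 129.0, 135.2 and 131.4 to 83.9, 86.6 and 88.4 CPM, with a log2 fold change of -0.61 (standard error 0.042, adjusted p 3.7e-10). For all of these enzymes each siFSCN1 library was below each NC library. The other cytosolic enzymes that fell were those of tryptophan (WARS1), histidine (HARS1), glycine (GARS1), tyrosine (YARS1), lysine (KARS1), serine (SARS1) and glutamine (QARS1), with log2 fold changes from -0.49 for WARS1 to -0.12 for QARS1.

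AARS1 (ENSG00000090861.17, chr16:70251983-70289707, minus strand) had 196.0, 191.3 and 193.2 CPM in NC and 251.8, 256.2 and 258.1 in siFSCN1. The groups were separated by many times their spread, with a log2 fold change of 0.40 (standard error 0.036, adjusted p 1.3e-08). EPRS1, the fused glutamate and proline enzyme (ENSG00000136628.18, chr1:219968600-220046530, minus strand), rose from 103.8, 110.6 and 104.1 to 120.0, 116.5 and 124.0 CPM, a log2 fold change of 0.18 (standard error 0.043, adjusted p 0.0013). CARS1, the cysteine enzyme (ENSG00000110619.18, chr11:3000922-3057613, minus strand), rose from 56.5, 56.4 and 55.4 to 59.8, 59.7 and 63.9 CPM. Its log2 fold change of 0.12 (standard error 0.049, adjusted p 0.032) was small. CARS1 lost its call in 5 of the 6 fits that left out a library. The call was also lost with DESeq2, with RLE scaling (0.11) and without the filter on low counts (0.11). IARS1, the isoleucine enzyme, had 158.9, 172.1 and 160.5 CPM in NC and 160.7, 161.2 and 175.8 in siFSCN1, and its groups overlapped (log2 fold change 0.02, adjusted p 0.72). TARS3, a less abundant relative of TARS1 (ENSG00000185418.16), had 7.30, 7.29 and 6.81 CPM in NC and 8.34, 6.92 and 8.51 in siFSCN1. With a log2 fold change of 0.15 (standard error 0.115, adjusted p 0.25) it did not pass, and its 95% interval ran from -0.07 to 0.38, above that of TARS1 (-1.58 to -1.41). LARS1 and NARS1, of leucine and asparagine, also did not pass, with log2 fold changes of 0.00 and -0.07.

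Among the mitochondrial enzymes, YARS2, the tyrosine enzyme (ENSG00000139131.13, chr12:32727490-32755897, minus strand), fell from 35.3, 34.9 and 35.9 to 19.0, 18.5 and 19.3 CPM, with a log2 fold change of -0.91 (standard error 0.050, adjusted p 1.8e-11). CARS2, the cysteine enzyme (ENSG00000134905.17, chr13:110641412-110713603, minus strand), fell from 79.3, 85.4 and 79.1 to 47.0, 48.2 and 47.2 CPM, with a log2 fold change of -0.77 (standard error 0.049, adjusted p 1.2e-10). In both of them the libraries of the groups were well apart.

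SARS2, the serine enzyme (ENSG00000104835.15, chr19:38915266-38930763, minus strand), had 76.2, 75.3 and 77.7 CPM in NC and 52.1, 49.1 and 49.9 in siFSCN1, a log2 fold change of -0.60 (standard error 0.047, adjusted p 2.6e-09). A protein-coding gene named only by its identifier, ENSG00000269547, shares 1492 of the 3098 exonic bases of SARS2 (48.2%) on the same strand, and its own counts rose by 0.62 on the log2 scale (adjusted p 1.1e-05). The summed CPM of both genes went from 87.4 ± 1.28 to 67.3 ± 1.48 (SD, n = 3 each), a log2 ratio of -0.38. How reads were divided between them was not tested. FARS2, the phenylalanine enzyme (ENSG00000145982.13, chr6:5261044-5829192, plus strand), was low, with 12.9, 10.8 and 12.3 CPM in NC and 7.68, 7.77 and 8.65 in siFSCN1. Its log2 fold change of -0.58 (adjusted p 1.2e-04) had a wider standard error, 0.109, than those of the abundant enzymes. The remaining mitochondrial enzymes that fell were LARS2, NARS2, WARS2, TARS2, RARS2, AARS2, EARS2 and HARS2, from -0.53 for LARS2 to -0.15 for HARS2. MARS2, of methionine, stood at -0.19 and did not pass (adjusted p 0.064).

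Only IARS2 and PARS2 rose among the mitochondrial enzymes tested. IARS2, the isoleucine enzyme (ENSG00000067704.10, chr1:220094132-220148041, plus strand), had 150.4, 156.4 and 152.5 CPM in NC and 173.3, 179.5 and 189.6 in siFSCN1, a log2 fold change of 0.24 (standard error 0.041, adjusted p 4.7e-05). PARS2, the proline enzyme (ENSG00000162396.6, chr1:54756898-54764523, minus strand), had 5.95, 6.99 and 5.43 CPM in NC and 8.20, 7.35 and 7.33 in siFSCN1. Its groups did not overlap, but the log2 fold change of 0.32 had a standard error of 0.120 (adjusted p 0.024). The call was lost without NC replicate 1 (0.30), NC replicate 3 (0.23) or siFSCN1 replicate 1 (0.25). It was also lost once the trend of change with mean level was removed (0.12).

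VARS2 (ENSG00000137411.19, chr6:30914205-30926459, plus strand) was almost without counts, while a long noncoding RNA, ENSG00000288473, which covers 4073 of its 6467 exonic bases (63.0%) on the same strand, had 548, 374 and 573 counts in NC and 546, 470 and 547 in siFSCN1. That gene did not pass (log2 fold change -0.11, adjusted p 0.31), and no level of VARS2 itself was read from these data. Very short neighbours aside, 5 enzyme genes share exonic bases with a gene on their own strand and 21 with one on the opposite strand. Among the 21 are MARS1 with DDIT3 (355 bases) and HARS1 with HARS2 (108 bases). Whether counting used the strand is not given in the sources used here, so reads of such neighbours cannot be told apart. Named pseudogenes exist for 11 of the genes, among them AARS1, RARS1, KARS1 and IARS2, and the counts of these are uncertain to the extent that reads match both.

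**Figure D2:**
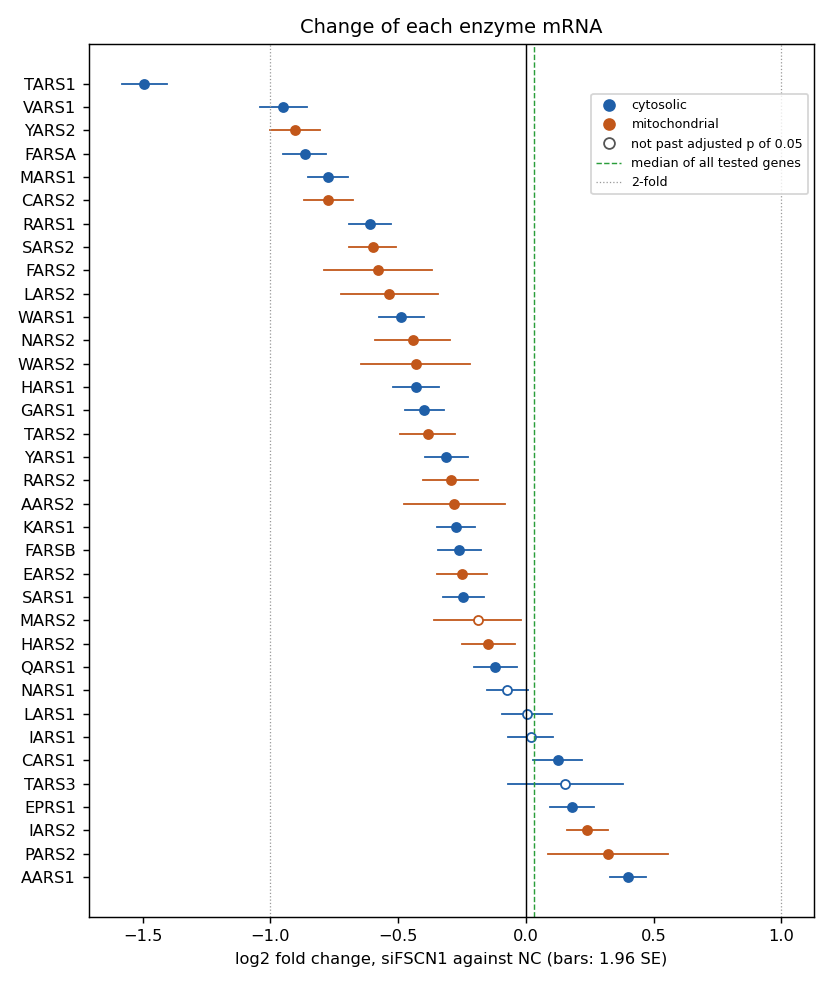
Log2 fold change (siFSCN1 against NC) of 20 cytosolic and 15 mitochondrial enzymes from edgeR, cytosolic in blue and mitochondrial in orange, with bars for the 95% interval and open circles for genes that did not pass an adjusted p of 0.05. The changes run from -1.49 for TARS1 to 0.40 for AARS1, and cytosolic and mitochondrial enzymes are mixed along the whole range.

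By compartment, the median log2 fold change was -0.26 over the 21 cytosolic enzymes and -0.41 over the 16 mitochondrial enzymes tested, where the median over all tested genes was 0.03. The summed level of the cytosolic enzymes went from 2526 ± 36.3 CPM in NC to 2069 ± 20.3 in siFSCN1 (SD, n = 3 each), a ratio of 0.819. The corresponding sums for the mitochondrial enzymes were 643.7 ± 7.2 and 519.9 ± 11.4 CPM, a ratio of 0.808. By structural class, the medians were -0.31 for class I and -0.26 for class II cytosolic enzymes, and -0.36 and -0.41 for the classes of the mitochondrial enzymes. Of the 8 enzymes of the multisynthetase complex, 5 fell and 1 rose, with a median of -0.14. Of the 13 cytosolic enzymes outside the complex, 9 fell and 2 rose, with a median of -0.31. Over all tested genes 33.2% were lower and 35.1% higher. The difference between the complex and the other cytosolic enzymes was not tested, and the counts of the complex moved with the scaling.

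The direction of the smaller changes depended on the scaling. The TMM factors were 0.933 to 0.942 in NC and 1.05 to 1.08 in siFSCN1, and with library totals in their place the median of all tested genes moved from 0.03 to 0.22. On that scale 9 cytosolic enzymes fell and 7 rose, and 8 mitochondrial enzymes fell and 2 rose. With upper quartile scaling 12 cytosolic enzymes fell and 6 rose. The 33.2% lower and 35.1% higher of all tested genes belong to TMM, and shares under the other settings are not given here. Relative to the median of all tested genes, the cytosolic median was -0.29 and the mitochondrial median -0.44 with either of these scalings. With library totals QARS1 and HARS2 turned to changes of 0.07 and 0.04 that did not pass. NARS1, at -0.07 and not called as reported (edgeR adjusted p 0.12), turned to 0.12 and was then called higher (adjusted p 0.021), as it also was with both limma fits and with the abundance trend removed. Under every alternative tried, 19 of the 35 enzymes in the plot of log2 fold changes kept both direction and call. These were 9 cytosolic enzymes that fell (TARS1, VARS1, FARSA, MARS1, RARS1, WARS1, HARS1, GARS1 and YARS1), 7 mitochondrial enzymes that fell (YARS2, CARS2, SARS2, FARS2, LARS2, NARS2 and TARS2), and AARS1, EPRS1 and IARS2, which rose. Abundance moved with the changes: once the trend of log2 fold change with mean CPM over all genes was removed, the cytosolic median stood at -0.02 relative to that of all tested genes, against -0.29 before, with 9 cytosolic enzymes lower and 6 higher. The mitochondrial median moved less, from -0.44 to -0.41 on the same scale, with 13 mitochondrial enzymes lower and 1 higher.

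The levels of the enzymes differed widely. The deposited FPKM divides by a length within 5% of all annotated exons for 34 of 37 enzymes, but not for YARS1, NARS2 and RARS2. On this scale FARSA (36.6, 37.2 and 38.6 FPKM), KARS1 (35.6, 37.7 and 36.1) and TARS1 (31.6, 34.0 and 33.4) were highest in NC. Over both groups together the highest were KARS1 (34.0, 34.0 and 33.6 FPKM in siFSCN1), IARS2 (28.6, 30.1 and 29.6 in NC, 37.9, 38.2 and 40.8 in siFSCN1) and FARSA (23.0, 22.9 and 23.2 in siFSCN1). Annotated exons can be much longer than the MANE Select transcript, the representative transcript of a gene, as in HARS1, where they are 7.27 times as long. Levels were therefore also expressed as CPM per kilobase of that transcript, a choice made after seeing the data. By CPM per kilobase KARS1 led in NC with 93.4 ± 2.62, followed by GARS1 with 72.8 ± 1.73, TARS1 with 66.2 ± 2.16, FARSA with 63.4 ± 1.10 and RARS1 with 62.1 ± 1.47 (SD, n = 3 each). The NC libraries of TARS1 and FARSA overlapped, as did those of FARSA and RARS1. GARS1 ranked 2 on this scale and 20 by FPKM. In siFSCN1, TARS1 was 18 in the order at 23.5 ± 1.01 and AARS1 had moved from 7 to 2 at 74.3 ± 0.940. The median over the enzymes in NC was 47.7 CPM per kilobase in the cytosolic and 8.53 in the mitochondrial group. The mitochondrial median includes VARS2 at 0.00817, although its level could not be read.

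For 15 amino acids the ratio of the cytosolic to the mitochondrial enzyme was computed from FPKM in each library, which removes any scaling between libraries. EPRS1 entered both the glutamate and the proline ratio, and FARSA stood for the cytosolic phenylalanine enzyme. The ratio was higher in siFSCN1 for 7 amino acids, in each without overlap of the groups, and lower for 8, of which 6 did not overlap. The median difference in log2 ratio was -0.06. Every ratio whose groups did not overlap gave p = 0.1 in a two-sided exact permutation test, which is the lowest value possible with 3 libraries in each group, and 0.115 after adjustment over the 15 ratios, so none could pass.

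**Figure D3:**
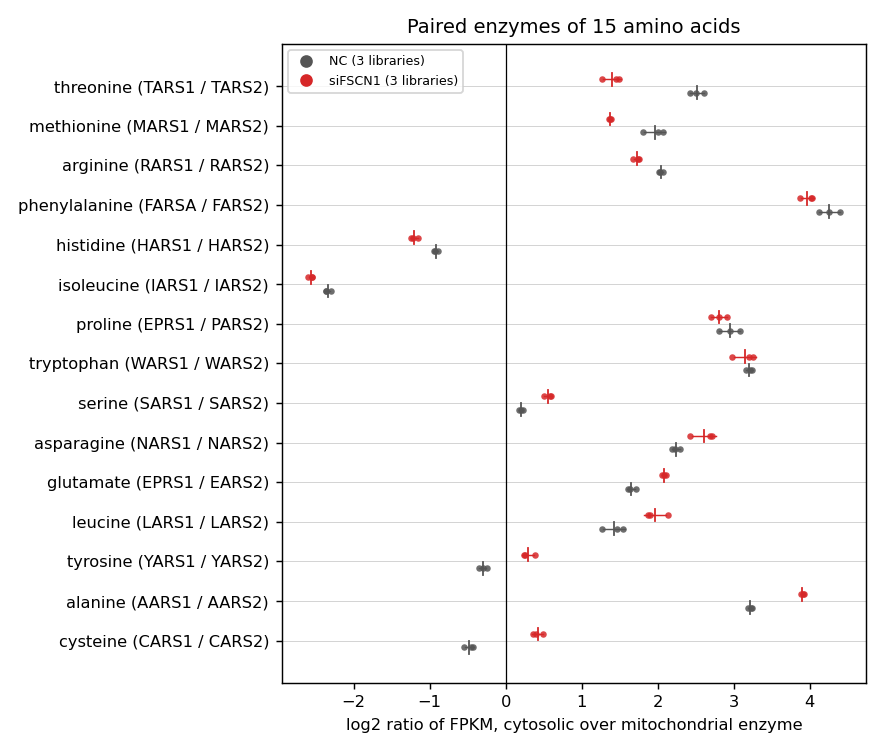
Log2 ratio of FPKM of the cytosolic over the mitochondrial enzyme for 15 amino acids, with 3 NC (grey) and 3 siFSCN1 (red) libraries as points, means as vertical ticks and SD as horizontal bars. Threonine shows the largest shift toward the mitochondrial enzyme (from 2.51 to 1.40) and cysteine the largest toward the cytosolic enzyme (from -0.48 to 0.42).

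Among these 15 amino acids the ratio moved furthest for threonine and cysteine. TARS1 stood 5.36, 6.10 and 5.68 times as high as TARS2 in NC and 2.82, 2.40 and 2.73 times in siFSCN1, since TARS1 fell further than TARS2 (30.5, 28.6 and 29.9 CPM in NC, 22.3, 24.0 and 21.9 in siFSCN1, log2 fold change -0.38). The ratio of CARS1 to CARS2 went from 0.741, 0.687 and 0.728 to 1.32, 1.28 and 1.41, crossing from the mitochondrial to the cytosolic enzyme. On the MANE Select length this ratio of means was 0.464 in NC and 0.864 in siFSCN1, so that the crossing depended on the length used. Tyrosine showed the same on FPKM, from 0.788, 0.840 and 0.811 to 1.19, 1.30 and 1.20, but its ratio was above 1 in both groups on the MANE Select length. The tryptophan and proline ratios overlapped between groups.

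A motif search was made because many genes of cytosolic synthetases are known ATF4 targets. The core of the C/EBP-ATF response element, TGATGNAA, was searched on both strands in the RefSeq promoters (GRCh38.p14) from 250 bases before to 50 after each gene's start, and no other motif was searched. It occurred in 1270 of 35116 promoters (3.62%) and in 8 of 39 promoters (20.5%) of the 30 enzyme genes with an entry. Of the 16 cytosolic enzymes with an entry 7 held it, and of the 14 mitochondrial enzymes 1, YARS2. No entry was used for AARS2, LARS1, TARS3, VARS1, VARS2 and YARS1. The windows of 30 bases around the match are shown for all 8 genes, from the most lowered to the most raised, to set the letters beside the changes. They read 5′ to 3′ on the strand of the gene, with the match in capitals, and where it lies on the opposite strand it reads TTNCATCA.
TARS1 (chr5:33440956-33440985, plus strand): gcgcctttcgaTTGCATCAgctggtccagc
YARS2 (chr12:32756076-32756105, minus strand): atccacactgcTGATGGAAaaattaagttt
MARS1 (chr12:57488053-57488082, plus strand): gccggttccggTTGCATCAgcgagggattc
GARS1 (chr7:30594834-30594863, plus strand): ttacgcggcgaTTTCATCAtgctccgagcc
NARS1 (chr18:57621804-57621833, minus strand): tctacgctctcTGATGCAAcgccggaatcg
IARS1 (chr9:92293692-92293721, minus strand): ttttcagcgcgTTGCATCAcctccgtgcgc
CARS1 (chr11:3057407-3057436, minus strand): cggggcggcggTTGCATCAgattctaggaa
AARS1 (chr16:70289675-70289704, minus strand): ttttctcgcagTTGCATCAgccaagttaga

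Genes with the same 8 letters changed in opposite directions. TARS1, with the largest fall (-1.49), and AARS1, with the largest rise (0.40), both carry TTGCATCA, as do MARS1 (-0.77), IARS1 (0.02, not past the threshold) and CARS1 (0.12). Of the 7 cytosolic enzymes with the motif 3 fell and 2 rose, near the 33.2% lower and 35.1% higher of all tested genes, with a median log2 fold change of -0.07. Of the 9 with an entry but no match 8 fell and 1 rose, with a median of -0.27, and the difference between these enzymes was not tested. A match is only a description of letters, and binding was not measured here.

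The amino acid response genes outside the enzymes were themselves divided. ATF4 rose slightly, with a log2 fold change of 0.13 (standard error 0.035, adjusted p 0.0029). Of 32 response genes tested, 19 rose and 9 fell, with a median of 0.26, 6 rose at least 2-fold and 2 fell at least 2-fold. Over all tested genes 35.1% rose and 33.2% fell, 11.7% and 4.85% by at least 2-fold, so that the shares of response genes that fell lay near those of all genes. The shares of response genes that rose lay above those of all genes, and this difference was not tested. NUPR1, a stress-induced chromatin protein, rose by 1.79 on the log2 scale (adjusted p 6.0e-14) and DDIT4, an inhibitor of mTORC1, by 0.97 (adjusted p 1.3e-13). ATF5, a transcription factor of the same family (-1.91), GDF15, a secreted stress cytokine (-1.29), and ASNS, asparagine synthetase (-0.56, adjusted p 4.6e-09), fell. Of 6 regulators of MYC and mTORC1, 2 fell, 2 rose and 2 did not pass, which is near the shares of all tested genes. RPTOR, the scaffold of mTORC1, fell by 1.09 and MYC by 0.18, while MTOR rose by 0.48 and MXD4, an antagonist of MYC, by 0.49. The counts of this list moved with the scaling.

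Other genes of tRNA charging and translation were counted in the same way, and their counts stand against 33.2% of all tested genes lower and 35.1% higher. Of the 4 genes that complete the charging of mitochondrial tRNA, 3 fell, with a median of -0.66: MTFMT, which formylates the initiator methionine tRNA (-1.05, adjusted p 1.4e-10), and QRSL1 (-0.73) and GATC (-0.59), subunits of GatCAB. GATB, another subunit of GatCAB, stood at -0.18 and did not pass (adjusted p 0.083). Of 15 genes of proofreading and tRNA maturation, 13 fell and 1 rose, with a median of -0.38. DTD2, a proofreading deacylase of mischarged tRNA, fell by 1.57 (adjusted p 2.9e-11) and RTCB, the tRNA ligase, by 0.85. ELAC1, a tRNA 3′ processing nuclease, rose by 0.32 (adjusted p 0.032). All 5 genes that fell among the 6 of cytosolic tRNA delivery did so by 0.34 or less, led by EEF1G and EEF1B2 of the elongation factor 1 complex. Of the 3 scaffold proteins of the multisynthetase complex, AIMP2 (-0.32) and EEF1E1 (-0.19) fell and AIMP1 stood at 0.09 (adjusted p 0.13). Of the 9 mitochondrial translation factors tested, 4 were lower and 4 higher, which is near the shares over all tested genes, and TSFM and MTRFR were not tested. The mitochondrial elongation factor TUFM fell by 0.46 and the ribosome recycling factor MRRF by 0.61, while MTRF1, a release factor, rose by 0.87 and GFM2, a recycling factor, by 0.18. In the selenocysteine pathway, in which SARS1 charges the selenocysteine tRNA with serine, 4 of 8 genes fell and 1 rose. SECISBP2, which binds the selenocysteine insertion element, fell by 0.98 and TRNAU1AP by 0.63. SEPSECS, which converts the bound serine to selenocysteine, rose by 0.83 (adjusted p 8.8e-06).

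**Figure D4:**
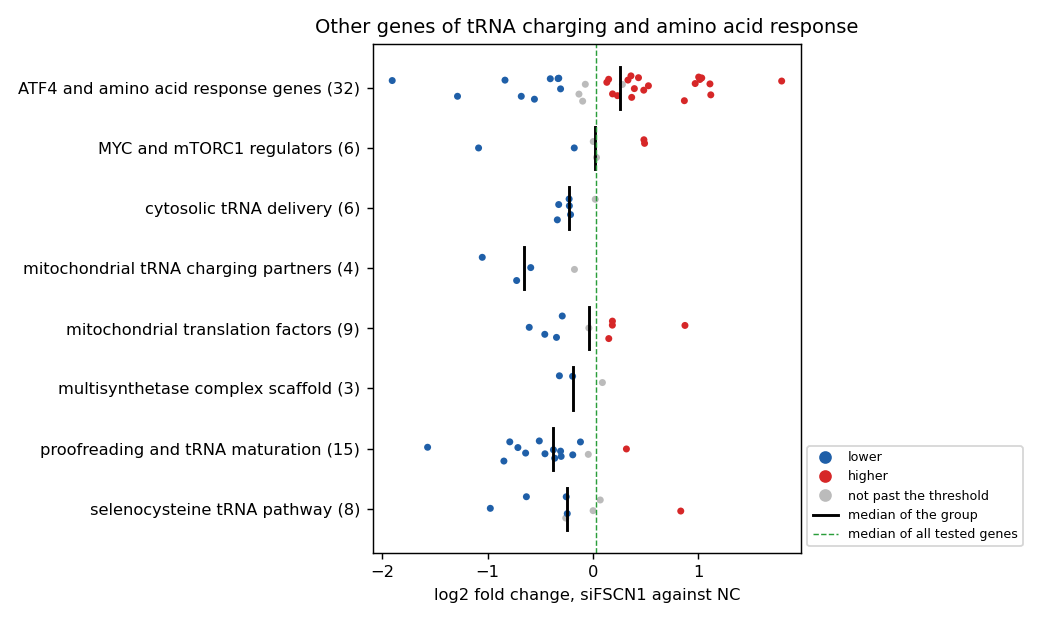
Log2 fold change (siFSCN1 against NC) of each tested gene of 8 gene lists related to the enzymes, with calls lower (blue), higher (red) or not past the threshold (grey), list medians as black bars and the median of all tested genes (0.03) as a dashed line. The number of genes tested is given with each name. The amino acid response list has its median to the right (0.26), and the charging partners of mitochondrial tRNA lie furthest to the left (-0.66).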

How the data were processed

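For 6 libraries the authors deposited raw gene counts and FPKM values (fragments scaled to gene length and to mapped fragments), each as its own table. Per the study's methods, reads were trimmed, aligned to GRCh38 with HISAT2 and kept where uniquely mapped, while the submitters' processing notes name bcl2fastq and TopHat2. The methods and the labels name different library kits, both strand-specific. How genes were counted, whether by strand, and with which annotation is not given in the sources used here. Dividing counts by FPKM gave gene lengths within 5% of the summed exons of GENCODE 44 for 34 of 37 enzymes.

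Of 30230 genes, the 17076 that passed filterByExpr were scaled by TMM and tested in edgeR 4.0.16 (quasi-likelihood, no covariate, with limma 3.58.1 and R 4.3.3), with Benjamini-Hochberg adjustment over all tested genes. The authors used DESeq2, which was run here as an alternative (version 1.42.0). The script was tested on simulated data. Ratios between enzymes were compared with an exact permutation test. The 16 alternatives were RLE, upper quartile and total scaling, DESeq2, no filter, a stricter filter, a replicate block, leaving out each library, limma on log2(FPKM + 0.1) and log2(FPKM + 1), and removal of the trend with abundance. The summing of SARS2 and VARS2 with overlapping genes and the MANE Select lengths were added after seeing the data.

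The enzymes and lists were chosen with earlier results of these data known. Values in every library are given for FSCN1, for enzymes changed at least 2-fold, for the 5 largest falls and rises in each compartment, for both genes of the amino acids whose enzymes differed most, and for the 3 enzymes of highest mean FPKM. From each list the 2 lowest adjusted p in each direction are named, with ATF4 and ASNS. WARS1, HARS1 and the other enzymes named only by a fold change come from the symbol rule. Of the tested enzymes 2 enter the counts, medians and sums but, like 1 marker gene, are not reported here. The precision is limited by 3 libraries per group of at least 27967301 counts.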

Additional observations from a re-analysis of the deposited data

How the results depend on the processing

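Over 16 alternatives 35 enzymes gave 560 values, of which 481 kept direction and call, 39 kept direction and lost the call, 18 gained it and 22, from 6 genes, changed sign. Cytosolic enzymes called lower numbered 9 with library totals and 9 with the abundance trend removed (14 as reported). Those called higher numbered 6 with upper quartile scaling, 7 with library totals, 7 with each limma fit and 6 with the trend removed (3 as reported). Mitochondrial enzymes called lower numbered 8 with library totals (13 as reported), and those called higher numbered 1 with the trend removed (2 as reported). Leaving out each library gave 13 to 15 cytosolic enzymes lower and 2 to 3 higher, 12 to 13 mitochondrial enzymes lower and 1 to 2 higher, and 2 cytosolic falls of 2-fold without siFSCN1 replicate 1 (VARS1 joined TARS1). TARS1 fell at least 2-fold under every alternative. The other 2-fold fall was lost with upper quartile scaling, library totals, both limma fits and the trend removed.

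Relative to the median of all tested genes, the cytosolic median was -0.40 with no filter, -0.25 with the strict filter, -0.17 with limma on log2(FPKM + 1) and -0.0159 with the trend removed, and the mitochondrial median was -0.55 with no filter and -0.25 with limma on log2(FPKM + 1). Summed FPKM gave ratios of siFSCN1 to NC of 0.859 for cytosolic and 0.925 for mitochondrial enzymes. In order of library totals, limma with a pseudocount of 0.1, limma with 1 and the trend removed, sign changes were 0.0667, 0.0460, 0.0442 and 0.0993 for QARS1 and 0.115, 0.0930, 0.0899 and 0.147 for NARS1, which was also 0.0455 with upper quartile scaling. HARS2 was 0.0402, 0.0182 and 0.0167 in the first 3 of these and TARS3 -0.0326 with the trend removed. LARS1 was -0.0135 with RLE scaling, -0.0132 with DESeq2 and -0.0044 with no filter, and between -0.0315 and 0.0428 when a library was left out. On leaving out a library IARS1 lay between -0.0352 and 0.0440, and the log2 tryptophan ratio differed between groups by -0.114 to 0.0244. The cause was not tested.

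Among the lists, upper quartile scaling and library totals gave 3 and 2 complex enzymes lower and 3 and 3 higher, 1 and 1 scaffold genes lower and 1 and 1 higher, and 1 and 1 tRNA delivery genes higher. They gave 2 and 2 selenocysteine genes higher, and 1 and 1 regulators of MYC and mTORC1 lower and 4 and 4 higher. Library totals gave 2 delivery genes, 2 mitochondrial translation factors, 8 maturation genes and 2 selenocysteine genes lower, and 2 maturation genes higher. DESeq2 gave 2 translation factors and 0 maturation genes higher. The SARS2 log2 ratio moved from -0.60 to -0.38 when summed with the overlapping gene, a choice made after seeing the data. Libraries with the same number did not deviate together, with correlations of same-numbered deviations of -0.0347, 0.0398 and -0.0841, and the replicate block left 14 and 3 cytosolic and 13 and 2 mitochondrial calls. The enzymes below 10 CPM (TARS3, WARS2, PARS2) have the widest errors, and VARS2 had too few counts to be tested.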
